A study of Rattus norvegicus with 2 samples.

Results

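The genes described here are the BCL2 family, the caspases and the regulators of apoptosis and necroptosis around them, taken as 44 named genes and read from the probe sets that carry 1 gene symbol among them. The rule compared pro-survival, BH3-only and effector genes by the log2 difference between the arrays, SMiG minus C6 here and throughout. Of the 44 genes, 41 had such a probe set, 1 each, among 18166 genes measured in all, and 37 were detected. Mcl1 and Bbc3 had no probe set with 1 symbol and Bax only probe sets that name a second symbol as well, so these 3 genes were not analysed here.

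Expression was measured by microarray in the established rat glioma line C6, in 1 culture treated with small molecules (SMiG) and in 1 culture of undifferentiated cells (C6), both in medium with serum. The labels disagree on the treatment. The SMiG sample's own labels name forskolin, which activates adenylyl cyclase, rapamycin, which inhibits mTORC1, and I-BET151, which inhibits BET bromodomain proteins, whereas the treatment protocol given for both samples lists 20 µM CHIR99021, a GSK3 inhibitor, and 100 µM forskolin for 35 days. No vehicle is named for the C6 culture in the sources used here. With 1 array per group there was no replicate error, no test and no p-value, and every difference below is one between 2 arrays. The number of arrays limits the precision. RNA came from whole cultures, in which fewer cells expressing a gene and less RNA per cell cannot be told apart.

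The main routes to apoptosis meet at the caspases. In the mitochondrial route, pro-survival proteins such as BCL2 hold the effectors BAX and BAK in check, BH3-only proteins release or activate the effectors, and the opened outer membrane lets out cytochrome c, which builds the apoptosome with APAF1 and activates caspase-9. In the death receptor route, FAS and related receptors recruit FADD and caspase-8, while CFLAR limits caspase-8. When caspase-8 is inactive, RIPK1 and RIPK3 can activate MLKL, which ruptures the plasma membrane (necroptosis). In glioma, evasion of these routes is a known feature of resistance to therapy.

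A gene was called detected when its signal on either array exceeded the floor, the 95th percentile of 1344 olfactory and vomeronasal receptor genes taken as silent, which was 4.96 in SMiG and 4.86 in C6 on the log2 scale. Between the arrays these receptor genes differed with an SD of 0.32, used below as a yardstick of technical scatter at low signal, which holds no variation between cultures. Glial markers were present, 7 of 7 detected, with 3 at least 2-fold higher in SMiG. These were S100b at 10.87 in SMiG and 9.67 in C6, Cnp, 2.87-fold higher, and Sox10, 2.02-fold higher. Gfap and Nes had negative differences, −0.56 and −0.15. None of the 4 leukocyte markers (Ptprc, Aif1, Itgam and Cx3cr1) was detected, with levels of 2.76 to 3.58 in SMiG and 2.99 to 4.23 in C6, and their summed log2 level was 13.2 in SMiG and 14.2 in C6. Of the other cell type markers, 1 of 2 measured endothelial, 1 of 3 neuronal and 2 of 3 fibroblast markers were detected. Their summed log2 levels in SMiG and C6 were 9.09 and 9.94 for endothelium, 12.6 and 13.4 for neurons and 16.2 and 16.9 for fibroblasts, sums that include markers below the floor. Of the fibroblast markers, Col1a1 was 2.23-fold lower in SMiG, while Col3a1 differed by 0.15. Dcn was below the floor on both arrays, at 3.37 in SMiG and 3.13 in C6.

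Most cell death genes differed little between SMiG and C6, and 6 of the 37 detected passed 2-fold. Bcl2 and Pdcd4 were higher in SMiG, and Casp4, Casp12, Ripk3 and Dapk1 were lower. The 2 higher genes are 5.41% of those detected, beside 3.20% of all 10903 detected genes, and the 4 lower genes are 10.8%, beside 6.53%. A single gene is worth 2.70 percentage points at this number, so these shares are too coarse to set the genes apart from the background. The median difference was −0.0069 over the 37 genes and −0.0040 over all detected genes, and 18 of the 37 (48.6%), against 50.3% of all detected genes, lay within 1 SD of the receptor genes. The mean over the 37 genes was −0.14, since the 4 lower genes differed more than the 2 higher ones.

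**Figure D1:**
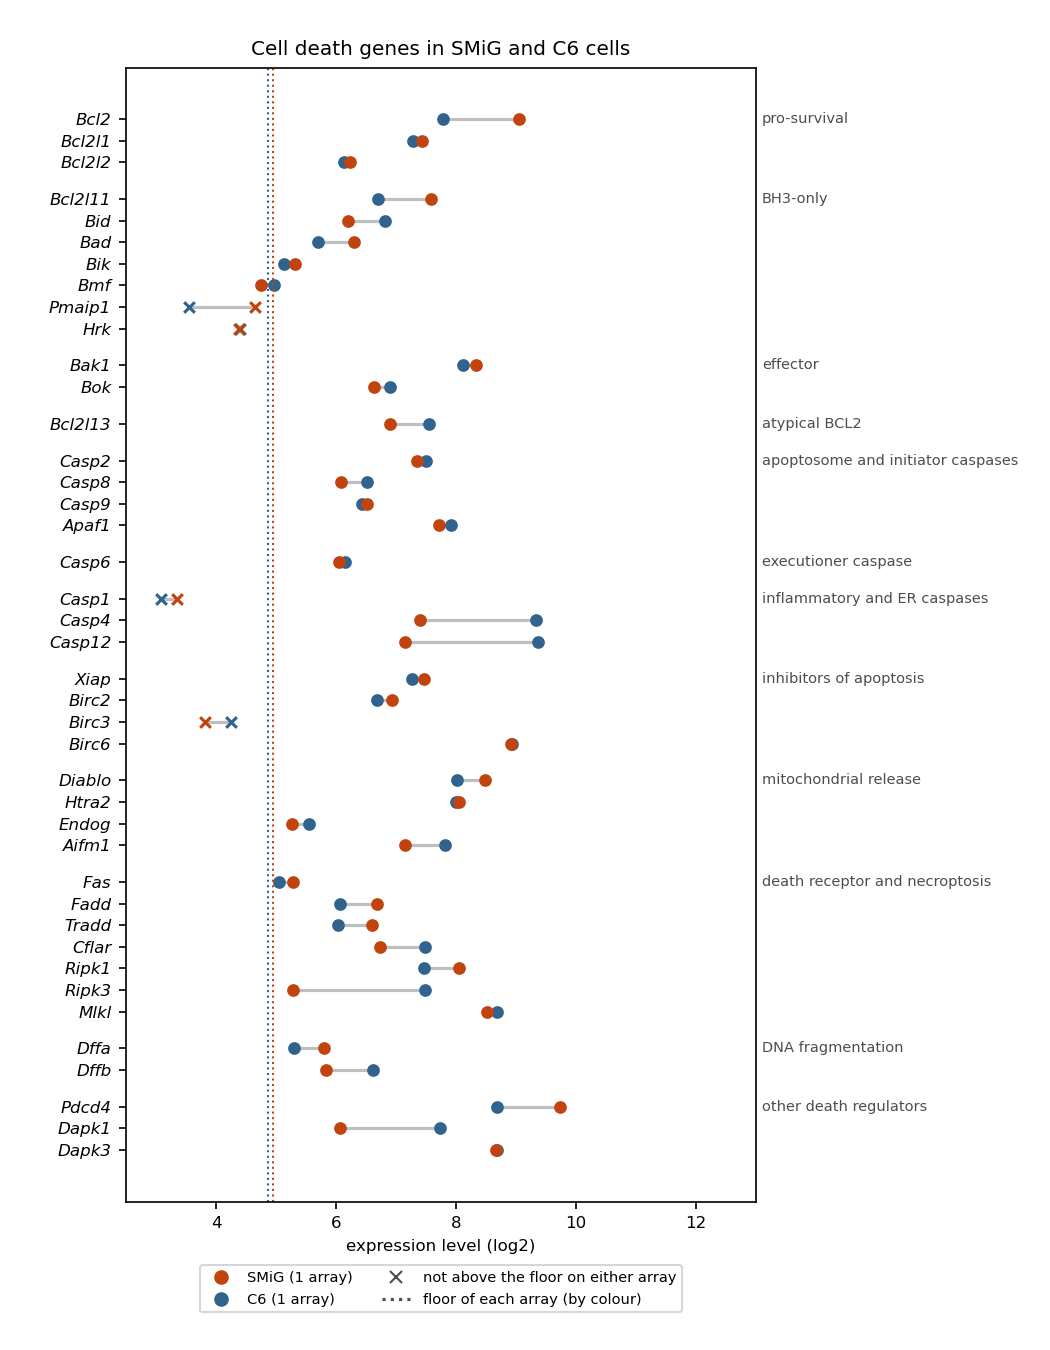
Log2 expression level of each of the 41 measured cell death genes, by class, in SMiG (orange) and C6 (blue), 1 array each. Dotted lines are the floors of 4.96 in SMiG and 4.86 in C6, and crosses mark the 4 genes not above the floor on either array. The widest spans belong to Casp12, Ripk3, Casp4 and Dapk1, all lower in SMiG.

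Of the 3 measured pro-survival genes of the BCL2 family, Bcl2 passed 2-fold. Bcl2, the founding member of the family and a guard of the mitochondrial outer membrane, was at 9.05 in SMiG and 7.78 in C6, which is 2.42-fold higher in SMiG, and its difference of 1.27 exceeded that of 98.5% of detected genes. Bcl2l1, encoding BCL-XL, was at 7.44 in SMiG and 7.28 in C6. Bcl2l2, encoding BCL-W, was at 6.23 in SMiG and 6.13 in C6. Both of these lay within the scatter of the receptor genes, with differences of 0.15 and 0.10. The class had 1 of 3 detected genes (33.3%) at least 2-fold higher in SMiG, beside 3.20% of all detected genes. At 3 genes this share is too coarse to set the class apart, and the median difference was 0.15. Bcl2l13, an atypical relative known as a receptor for mitophagy, was at 6.89 in SMiG and 7.56 in C6, within 2-fold.

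BH3-only genes, which encode the antagonists of the pro-survival proteins, lay on both sides, none of 5 detected past 2-fold. Bcl2l11, encoding BIM, which binds all the main pro-survival proteins, came nearest, at 7.58 in SMiG and 6.69 in C6, and its difference of 0.88 lay just outside the threshold. Bad, whose protein is held inactive by growth factor signalling, was at 6.30 in SMiG and 5.69 in C6. Bid, which caspase-8 cleaves to link the death receptors to mitochondria, went the other way, at 6.19 in SMiG and 6.81 in C6. The differences of Bad and Bid, 0.61 and −0.62, were of like size and opposite sign. Bik, of the endoplasmic reticulum, was close to the floor at 5.32 in SMiG and 5.13 in C6. Bmf was detected through C6 alone, at 4.75 in SMiG and 4.97 in C6. Pmaip1, encoding NOXA, was below the floor on both arrays at 4.65 in SMiG and 3.54 in C6, so its gap is not counted, and Hrk was below it at 4.39 in SMiG and 4.40 in C6.

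The effectors were close to equal. Bak1, encoding BAK, was at 8.34 in SMiG and 8.11 in C6, and Bok, encoding a relative that can act without BAX and BAK, was at 6.63 in SMiG and 6.89 in C6. Both differences, 0.23 and −0.27, lay within 1 SD of the receptor genes. Set side by side, the median differences were 0.15 for pro-survival (3 genes), 0.19 for BH3-only (5 genes) and −0.019 for effector genes (2 genes). The gaps between these medians were −0.039 for pro-survival minus BH3-only, 0.17 for pro-survival minus effector and 0.21 for BH3-only minus effector, over 2 to 5 genes a class and with no error to set beside them. With a stricter floor, the 99th percentile of those receptors, Bik and Bmf dropped out, the BH3-only median over 3 genes was 0.61, the gap of pro-survival minus BH3-only was −0.46 and that of BH3-only minus effector was 0.63.

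**Figure D2:**
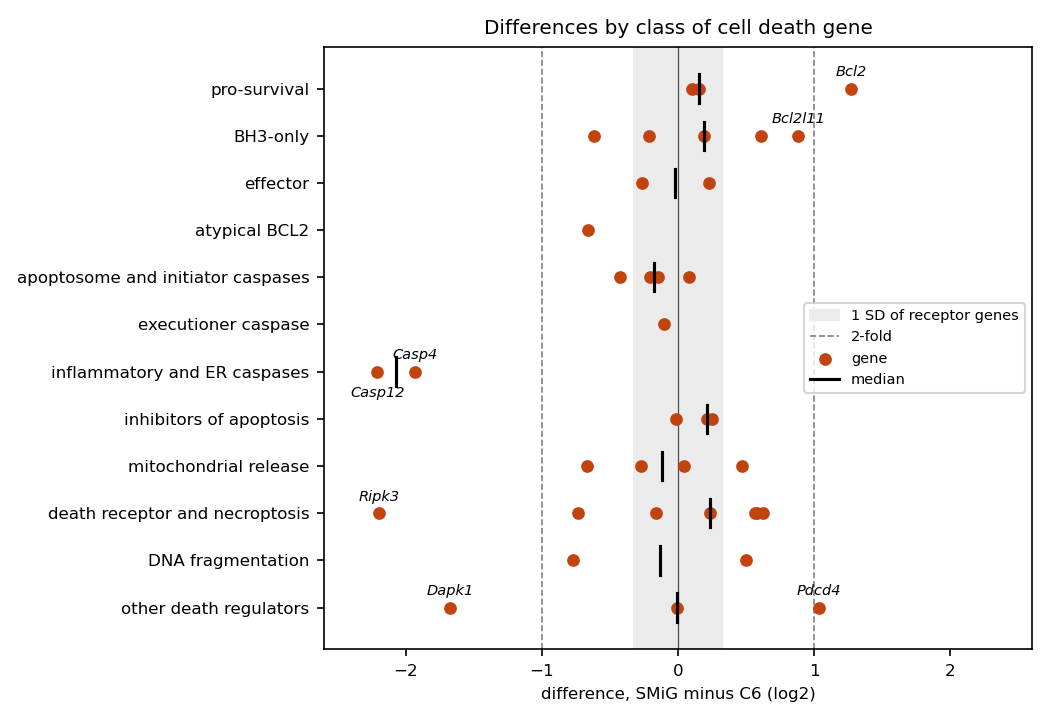
Log2 difference, SMiG minus C6, of the 37 detected cell death genes by class, with the class median as a black bar where a class had more than 1 gene. The shaded band is 1 SD (0.32) of the receptor genes and dashed lines mark 2-fold. Class medians lie near 0 except for the inflammatory and ER caspases at −2.07.

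Bcl2, the member of its family with the largest difference, was also set against single members that its protein binds or resembles. Relative to Bak1, Bcl2 was 2.06-fold higher in SMiG than in C6, and relative to Bid 3.71-fold higher. Relative to Bcl2l11 the excess of Bcl2 was 1.31-fold and relative to Bad 1.59-fold, because these BH3-only genes lay higher in SMiG too. Against its close relative Bcl2l1 the excess was 2.18-fold. These are ratios of 2 fold changes, show unequal change only, and the pairs were chosen after their values were seen.

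The caspases split by function. The largest differences of all 37 genes included the pair Casp12 and Casp4, while caspases of the apoptotic cascade were within 2-fold. Casp12, encoding a caspase of rodents tied to the endoplasmic reticulum, was at 7.16 in SMiG and 9.37 in C6, 4.62-fold lower in SMiG. Casp4, whose protein senses bacterial lipopolysaccharide inside cells and is the counterpart of mouse caspase-11, was at 7.40 in SMiG and 9.33 in C6, 3.81-fold lower. Both stayed well above the floor on both arrays, and 1.02% and 1.43% of detected genes had a lower difference than their −2.21 and −1.93. Casp1, which matures interleukin-1 beta, was not above the floor on either array, at 3.35 in SMiG and 3.08 in C6. In the RefSeq annotation of the GRCr8 assembly these are consecutive protein-coding genes of chromosome 8, in the order Casp1, Casp4, Casp12. Myeloid cells also express these caspases, and the 4 leukocyte markers given above, 3 of them myeloid, were below the floor on both arrays. Whether such cells contributed to these differences, or whether probes of these related genes share signal, was not tested.

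The initiators and the apoptosome stayed close to equal. Casp9, the caspase of the apoptosome, was at 6.51 in SMiG and 6.43 in C6, and Apaf1, its scaffold, at 7.71 in SMiG and 7.92 in C6. Casp2, an initiator that responds to failed cell division, was at 7.36 in SMiG and 7.50 in C6. Casp8 differed most, at 6.08 in SMiG and 6.51 in C6, or −0.43. The class median over 4 genes was −0.17, with 3 of 4 negative. Casp6, the executioner caspase that cleaves lamins, was at 6.04 in SMiG and 6.14 in C6.

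Inhibitor of apoptosis genes, whose proteins bind caspases or mark them for degradation, were near equal on the arrays. Xiap, a direct inhibitor of caspase-9, was at 7.47 in SMiG and 7.26 in C6. Birc2, a ubiquitin ligase of TNF receptor complexes, was at 6.93 in SMiG and 6.68 in C6, and Birc6, a giant ubiquitin-conjugating member, at 8.92 in SMiG and 8.93 in C6. All 3 lay within 1 SD of the receptor genes. Birc3, an NF-kappaB target, was below the floor at 3.81 in SMiG and 4.26 in C6.

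Proteins that mitochondria release gave differences of both signs, all within 2-fold. Diablo, encoding SMAC, which lifts the block by XIAP, was at 8.49 in SMiG and 8.02 in C6. Htra2, a protease of the same kind of action, was at 8.05 in SMiG and 8.01 in C6. Aifm1, encoding AIF, which also serves the assembly of the respiratory chain, was at 7.15 in SMiG and 7.82 in C6, and Endog, a mitochondrial nuclease, at 5.27 in SMiG and 5.54 in C6. The differences ran from −0.67 for Aifm1 to 0.47 for Diablo, and relative to Xiap, Diablo was 1.20-fold higher in SMiG.

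In the death receptor and necroptosis class, 1 of 7 genes (14.3%) was at least 2-fold lower in SMiG, beside 6.53% of all detected genes. At 7 genes this share is too coarse to set the class apart. Ripk3, encoding the kinase that phosphorylates MLKL, was at 5.29 in SMiG and 7.48 in C6, 4.59-fold lower in SMiG and just above the floor there. Its partners did not share this. Ripk1, the kinase upstream, was at 8.05 in SMiG and 7.47 in C6, and Mlkl, the executor, was at 8.51 in SMiG and 8.68 in C6. Relative to Ripk3, Ripk1 was 6.85-fold and Mlkl 4.09-fold higher in SMiG. These gaps restate the large difference of Ripk3, since the pairs, here and below, were chosen after their values were seen.

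No other gene of this class passed 2-fold. Fas, the receptor, was near the floor at 5.28 in SMiG and 5.05 in C6. Fadd, the adaptor that recruits caspase-8, was at 6.69 in SMiG and 6.06 in C6, and Tradd, the adaptor of TNF receptors, at 6.60 in SMiG and 6.04 in C6. Cflar, encoding the caspase-8 regulator FLIP, was at 6.74 in SMiG and 7.48 in C6. The gap between Cflar and Fadd came to 2.57-fold, with Cflar the lower in SMiG. Between Cflar and Casp8, both lower in SMiG, it was 1.24-fold. The class median was 0.23 and the mean −0.16, opposite in sign because of Ripk3.

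The nuclease that cuts DNA in dying cells and its inhibitor lay on opposite sides. Dffb, encoding the nuclease CAD, was at 5.84 in SMiG and 6.61 in C6, or −0.77. Dffa, encoding the chaperone and inhibitor ICAD, was at 5.79 in SMiG and 5.29 in C6, or 0.50. Neither passed 2-fold alone, and the gap between them was 2.42-fold, with Dffa the higher in SMiG. Dffa lay near the floor in C6, so this gap is less well measured than those of brighter genes.

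**Figure D3:**
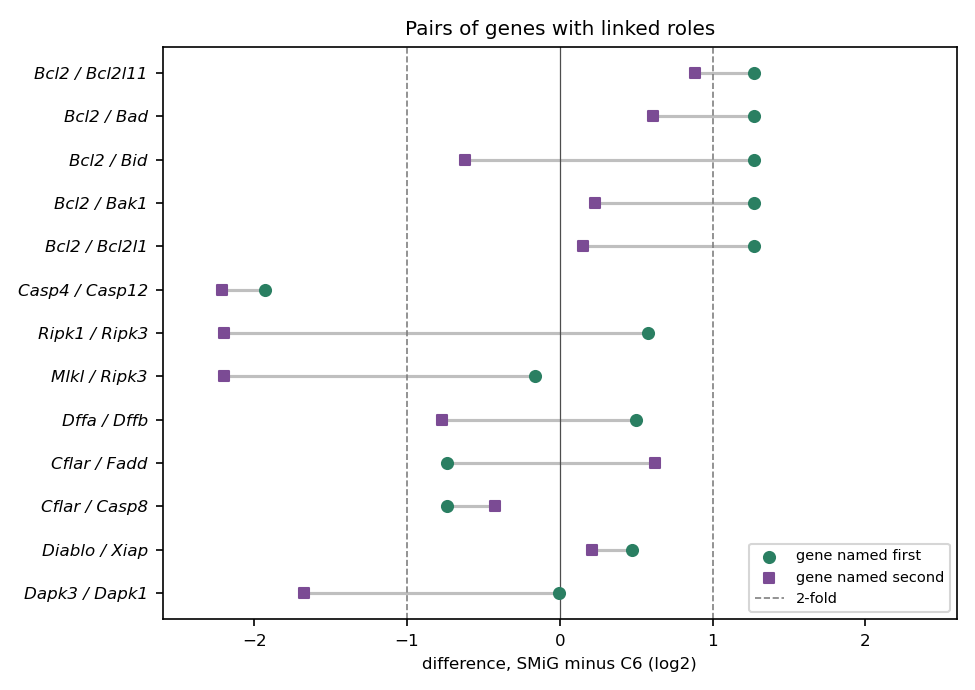
Log2 difference, SMiG minus C6, of both members of 13 pairs of genes with linked roles, the gene named first as a circle and the second as a square, with dashed lines at 2-fold. The widest gap, 2.78, is between Ripk1 and Ripk3, and the gap between Casp4 and Casp12 is 0.28. The pairs were chosen after their values were seen.

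The remaining regulators held a gene at each end. Dapk1, encoding death-associated protein kinase, a calmodulin-regulated kinase with roles in apoptosis and autophagy, was at 6.07 in SMiG and 7.74 in C6, 3.19-fold lower in SMiG. Its relative Dapk3 was at 8.67 in SMiG and 8.68 in C6, or −0.0069. Pdcd4, encoding an inhibitor of the translation initiation factor eIF4A that is degraded after phosphorylation by S6 kinase, was at 9.73 in SMiG and 8.69 in C6, 2.05-fold higher in SMiG. Pdcd4, at 1.04, lay just inside the threshold as Bcl2l11, at 0.88, lay just outside it.

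**Figure D4:**
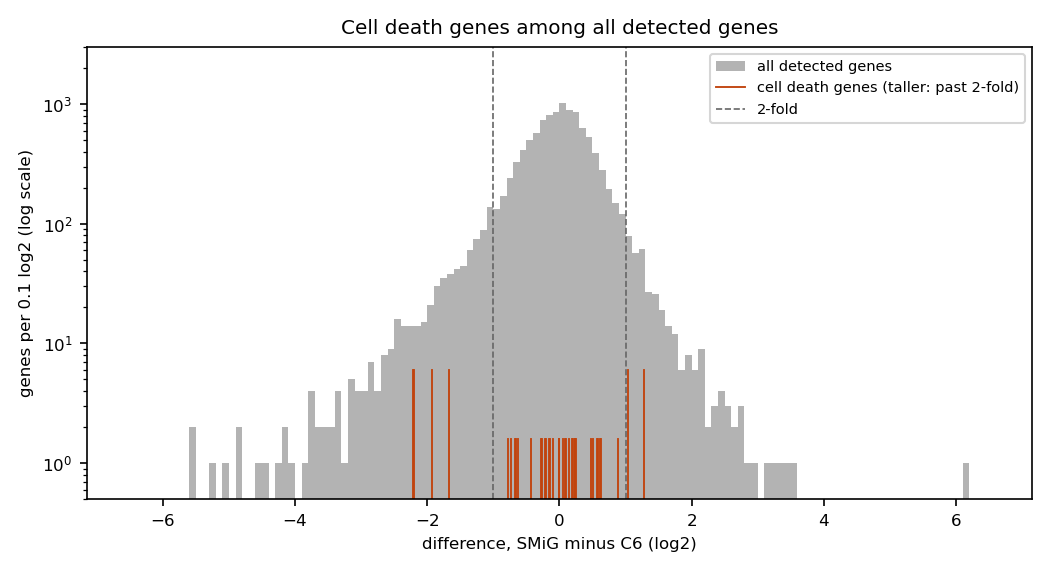
Histogram of the log2 difference, SMiG minus C6, of all 10903 detected genes (grey, counts on a log axis), with the 37 detected cell death genes as orange ticks, taller for those past 2-fold. Most ticks lie in the bulk of the histogram, and the 6 taller ones reach from −2.21 to 1.27, inside the range of all genes.

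The promoters of the genes past 2-fold are shown so that the genes that differed most can be compared by sequence. RefSeq promoter windows of GRCr8 were matched by symbol for 34 of the 44 genes, 5 of the 6 past 2-fold among them, and the 250 bases before the annotated start are printed 5′ to 3′ on the gene's strand. Capitals mark matches, on either strand, to TGACG (the half-site of the cAMP response element), TGANTCA (AP-1), GTAAACA (forkhead), ACGTG (hypoxia response element), CACGTG (E-box, which contains ACGTG) or TTCNNNGAA (GAS, bound by STAT factors). Casp12 lies at chr8:10926938-10927187 (plus strand), Ripk3 at chr15:33262026-33262275 (minus strand) and Dapk1 at chr17:4096582-4096831 (minus strand), all lower in SMiG, and Bcl2 lies at chr13:23366901-23367150 (minus strand) and Pdcd4 at chr1:262926445-262926694 (plus strand), both higher in SMiG.
Casp12: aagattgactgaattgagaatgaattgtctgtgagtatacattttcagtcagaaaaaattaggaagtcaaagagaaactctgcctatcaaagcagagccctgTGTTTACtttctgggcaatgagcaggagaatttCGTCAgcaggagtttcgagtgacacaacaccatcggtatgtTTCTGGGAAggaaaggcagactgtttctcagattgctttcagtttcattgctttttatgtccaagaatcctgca
Ripk3: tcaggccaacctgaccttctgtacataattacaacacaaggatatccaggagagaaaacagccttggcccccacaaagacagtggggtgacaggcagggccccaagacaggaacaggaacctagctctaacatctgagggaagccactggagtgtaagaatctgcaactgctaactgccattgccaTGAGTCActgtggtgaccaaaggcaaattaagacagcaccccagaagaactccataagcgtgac
Dapk1: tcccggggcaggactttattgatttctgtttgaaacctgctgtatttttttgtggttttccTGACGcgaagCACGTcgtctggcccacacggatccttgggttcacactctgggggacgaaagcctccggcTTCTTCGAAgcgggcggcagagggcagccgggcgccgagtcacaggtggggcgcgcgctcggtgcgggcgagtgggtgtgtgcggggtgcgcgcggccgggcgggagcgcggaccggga
Bcl2: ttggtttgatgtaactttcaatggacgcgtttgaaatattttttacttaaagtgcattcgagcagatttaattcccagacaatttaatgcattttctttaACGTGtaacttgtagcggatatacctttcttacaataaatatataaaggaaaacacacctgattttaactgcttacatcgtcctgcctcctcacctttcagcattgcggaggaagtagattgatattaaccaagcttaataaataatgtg
Pdcd4: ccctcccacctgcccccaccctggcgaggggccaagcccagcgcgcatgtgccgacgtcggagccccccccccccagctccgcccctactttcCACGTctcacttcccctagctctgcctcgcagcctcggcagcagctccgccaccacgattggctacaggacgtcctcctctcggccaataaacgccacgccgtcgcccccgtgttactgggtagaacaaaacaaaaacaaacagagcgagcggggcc

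None of the 6 motifs was present in all 5 windows, nor in all 3 windows printed for the lower genes. Casp4, also lower in SMiG, had no matched window. The Casp12 window held a forkhead, a CRE half-site and a GAS match, the Ripk3 window an AP-1 match, and the Dapk1 window a CRE half-site, a hypoxia response and a GAS match. The Bcl2 and Pdcd4 windows held a hypoxia response match each. In all 33469 windows of this length, the CRE half-site was found in 18.2%, AP-1 in 6.34%, forkhead in 3.21%, the hypoxia response element in 16.6%, the E-box in 5.59% and GAS in 7.67%. That set was not limited to detected genes. Nor was it reduced to a single window per symbol, as the windows of cell death genes were. Of the 34 windows of cell death genes, 10 (29.4%) held the CRE half-site, 4 (11.8%) AP-1 and 3 (8.82%) forkhead. The hypoxia response element was in 9 (26.5%), the E-box in 0 and GAS in 3 (8.82%). The forkhead matches were in Casp12, lower in SMiG, and in Bcl2l11 and Bad, which lay higher. Base composition differed widely, with a GC content of 40.4% for Casp12, 50.4% for Ripk3, 65.6% for Dapk1, 33.6% for Bcl2 and 66.8% for Pdcd4. The median GC content was 51.2% over all windows and 57.6% over the 34 windows of cell death genes. Whether this difference bears on the shares of matches was not tested. A match is a string of letters and does not show binding.

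A further 90 genes of cell death, survival and mitochondrial permeability were listed, of which 75 had a probe set with 1 symbol and 59 were detected. In this list 1 gene was at least 2-fold higher in SMiG and 1 at least 2-fold lower, beside 3.20% and 6.53% of all detected genes. The higher gene was Clu, encoding the secreted chaperone clusterin, at 9.03 in SMiG and 7.54 in C6. Faim2, encoding an inhibitor of FAS-triggered death known from neurons, was the lower gene, at 5.87 in SMiG and 8.22 in C6, 5.11-fold lower. Cycs, encoding cytochrome c, was at 8.04 in SMiG and 7.94 in C6. The median difference of the list was 0.045, with 31 positive and 28 negative values.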

How the data were processed

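Total RNA of 1 SMiG and 1 C6 culture was hybridised to Affymetrix whole-transcript arrays, per the labels' protocols. The deposited table gives 1 value per array for 36685 probe sets. The deposited values were taken as log2 levels that the authors had already scaled alike. That base was inferred from their range, 1.26 to 13.09, since a 16-bit maximum has a natural log of 11.09. How background, normalization and probes were handled is not stated in the labels or the table, and no further normalization was applied.

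Symbols were those of the platform annotation. In all, 18511 probe sets had 1 symbol, 575 several and 17599 none, and only the first kind was used. Probe sets of a gene were averaged, although each of the 41 measured members had 1. The members' gene numbers matched RefSeq (GRCr8) for 41 genes, with 0 symbols changed. In 177 detected genes measured by 2 probe sets, the gap between their differences had an SD of 0.51. Of the receptor genes taken as silent, 11 of 1344 (0.818%) passed 2-fold, the threshold for counting a gene. No filter other than the floor was used.

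All 44 members were to be named, and of the other list those past 2-fold and a few fixed genes, some of which are not reported here. The members and lists were chosen with earlier results of these data known. The count at 2-fold was tested on simulated data, with known changes well past 2-fold put only in genes well above the floor. Recovery of such large changes was near certain in advance. Changes close to 2-fold, class medians and changes near the floor were not tested in this way. Alternatives covered the floor, normalization, probe sets and fold threshold. Calculations used pandas 2.3.3 and numpy 2.4.6 in Python 3.11.15, with statsmodels 0.14.6 for the lowess and matplotlib 3.10.9 for the figures.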

Additional observations from a re-analysis of the deposited data

How the results depend on the processing

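With 1 array per group, no replicate could be left out. No paired analysis was possible because each group holds 1 sample. Median centring, removal of a lowess trend (span 0.3), quantile normalization, the brightest probe set, each probe set alone, a floor at the 99th percentile and values raised to the floor all left the same 6 members past 2-fold, Bcl2 and Pdcd4 higher and Casp4, Casp12, Ripk3 and Dapk1 lower. With no floor Pmaip1 joined them, for 3 higher. At 1.5-fold, 5 members (13.5%) were higher and 9 (24.3%) lower, beside 10.5% and 15.1% of all detected genes, and at 3-fold 0 were higher while the same 4 (10.8%) were lower, beside 0.734% and 2.51%. Other cell death genes past 1.5-fold numbered 3 (5.08%) higher and 7 (11.9%) lower. The floor at the 99th percentile gave a BH3-only median of 0.61, a gap of pro-survival minus BH3-only of −0.46 and a gap of BH3-only minus effector of 0.63, as fewer genes were left. The sign of the gap of pro-survival minus BH3-only (−0.039) changed to 0.052 under the lowess and 0.0030 under quantile normalization. No member's difference moved by more than the SD of the receptor genes in 222 comparisons, nor did a gap between paired members in 65, which were added after the data were seen. Many of these comparisons had a fixed outcome. Each measured member had 1 probe set, so the probe set settings could move none. Raising values to the floor could move only Bmf, and median centring shifts all genes alike and leaves every gap unchanged. Genes near the floor (Bik, Bmf, Fas, Endog, Dffa in C6 and Ripk3 in SMiG) are measured least well.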

Other observations

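Among the other cell death genes, 4 that encode proteins of mitochondrial division and fusion were picked after their values were seen. None passed 2-fold, and no group result is drawn from them. Dnm1l, encoding the fission GTPase DRP1, was at 8.33 in SMiG and 9.08 in C6, and its receptor gene Mff was at 8.80 in SMiG and 9.40 in C6. Opa1, encoding the inner membrane fusion GTPase, was at 7.76 in SMiG and 8.11 in C6, and Oma1, encoding the protease that cuts OPA1, was at 5.93 in SMiG and 6.48 in C6.

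The pore-forming gene Gsdmd, whose protein is cut by caspase-4 and its relatives, was at 6.41 in SMiG and 7.13 in C6, or −0.73, beside −1.93 for Casp4. Gsdme, of the same family, was at 6.98 in SMiG and 6.60 in C6. The stress gene Ddit3, encoding CHOP, was at 6.99 in SMiG and 7.84 in C6. Mdm2, encoding a ubiquitin ligase, was at 7.87 in SMiG and 8.87 in C6, just short of 2-fold before rounding. These genes too were picked after their values were seen.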
